A study of Mus musculus with 48 samples.

Results

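Expression of 9 genes was followed across all 48 RNA-seq libraries of the series. They are the inhibitory receptor genes Pdcd1, Havcr2, Lag3, Tigit and Cd160, the costimulatory receptor gene Cd226 that competes with Tigit for ligand, the transcription factor genes Tox and Tox2, and Entpd1, which encodes an ectonucleotidase found on exhausted and regulatory T cells. The genes were chosen by name, and all 9 were found among the 34932 genes measured. Total RNA came from cells sorted from C57BL/6J mice bearing B16F10 tumors, a transplanted mouse melanoma line. Live CD8+ T cells, CD4+ T cells and those CD45+ cells that stained for neither coreceptor (CD45+CD4-CD8- cells) were sorted from tumors, as tumor-infiltrating leukocytes (TILs), and from inguinal tumor-draining lymph nodes (TDLNs). Each population and tissue was taken from wild-type (WT) and Yap-cKO mice, giving 12 groups of 4 libraries. Yap-cKO mice carried Yap loxP/loxP, LSL-EYFP and CD4-Cre, in which Cre driven by the CD4 promoter acts from the CD4+CD8+ stage of the thymus. Deletion therefore takes place in the T-cell lineage, including its regulatory T cells, and CD45+CD4-CD8- cells are largely outside it. WT mice were littermate controls by the study's methods, mice were 6 to 10 weeks old, and the labels give no further allele or treatment.

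T cells that meet antigen for a long time, as in tumors and chronic infection, enter a state called exhaustion, in which several inhibitory receptors are carried together and effector function falls. PD-1 (Pdcd1) binds PD-L1 and PD-L2, TIM-3 (Havcr2) binds galectin-9 and CEACAM1 among others, and LAG-3 binds MHC class II and FGL1. TIGIT and the activating receptor DNAM-1 (Cd226) share the ligands CD155 and CD112, while CD160 binds HVEM. TOX is a nuclear HMG-box factor needed to set up the exhausted state, TOX2 is its close relative, and CD39 (Entpd1) breaks down extracellular ATP on the way to adenosine. The same molecules are also found on activated, regulatory and follicular helper T cells, and TIM-3 and CD39 on myeloid cells, so none of them marks exhaustion by itself. Yap is a transcriptional coactivator that binds DNA through TEAD factors.

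The 250 bases before the annotated starts of Entpd1, Havcr2, Pdcd1 and Tigit are shown because Pdcd1, Havcr2 and Entpd1 were higher in TILs than in TDLN cells of every population and Tigit kept its genotype call in CD4+ TILs in each fit that left out a library, and because Entpd1 has 2 starts whose transcripts are counted separately. The sequences are RefSeq's on GRCm38.p6, read 5′ to 3′ on the gene's own strand, with capitals marking any match on either strand to GGAATG (the core of the TEAD site), GGAAAA (the core of the NFAT site) or TGANTCA (the AP-1 site).
Entpd1 upstream start, chr19:40612116-40612365, plus strand: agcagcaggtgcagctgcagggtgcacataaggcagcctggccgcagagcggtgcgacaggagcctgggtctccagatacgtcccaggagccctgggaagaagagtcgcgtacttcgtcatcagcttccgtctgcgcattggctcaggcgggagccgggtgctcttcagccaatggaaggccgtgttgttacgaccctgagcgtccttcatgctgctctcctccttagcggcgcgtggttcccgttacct
Entpd1 downstream start, chr19:40659520-40659769, plus strand: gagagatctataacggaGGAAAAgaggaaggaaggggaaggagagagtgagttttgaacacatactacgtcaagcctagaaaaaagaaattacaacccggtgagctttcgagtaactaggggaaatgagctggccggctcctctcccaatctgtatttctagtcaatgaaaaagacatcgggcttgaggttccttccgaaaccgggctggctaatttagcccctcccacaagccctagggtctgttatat
Havcr2, chr11:46454681-46454930, plus strand: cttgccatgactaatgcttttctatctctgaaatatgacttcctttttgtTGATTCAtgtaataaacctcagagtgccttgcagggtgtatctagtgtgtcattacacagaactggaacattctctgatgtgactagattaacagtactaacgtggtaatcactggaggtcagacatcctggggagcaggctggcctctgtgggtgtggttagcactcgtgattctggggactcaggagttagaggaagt
Pdcd1, chr1:94052554-94052803, minus strand: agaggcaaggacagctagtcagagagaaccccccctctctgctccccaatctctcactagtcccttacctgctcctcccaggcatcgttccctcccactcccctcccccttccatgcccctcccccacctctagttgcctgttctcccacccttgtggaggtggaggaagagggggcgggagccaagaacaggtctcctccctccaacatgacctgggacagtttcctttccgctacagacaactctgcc
Tigit, chr16:43664185-43664434, minus strand: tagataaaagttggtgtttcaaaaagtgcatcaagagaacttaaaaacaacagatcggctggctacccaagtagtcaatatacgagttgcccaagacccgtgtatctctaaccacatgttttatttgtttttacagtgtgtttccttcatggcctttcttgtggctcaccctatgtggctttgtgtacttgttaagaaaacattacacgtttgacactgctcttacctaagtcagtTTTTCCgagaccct
The downstream Entpd1 start had 1 NFAT core 233 bases before it, and Tigit had 1 NFAT core, written TTTTCC on its own strand, 14 bases before its start. Havcr2 had 1 AP-1 site 200 bases before its start, and the windows of Pdcd1 and of the upstream Entpd1 start held none of the 3 motifs. The TEAD core was in none of these 5 windows. Of the 12 promoters listed for 6 of the genes, it was in 1 of the 2 of Cd160, 34 bases before the start, and in 2 of the 5 of Tox2, which start 1 base apart. Over all 32851 promoters of the table, 12.6% held the TEAD core, 20.4% the NFAT core and 6.75% the AP-1 site. These matches describe the letters of the windows only.

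On GRCm38, counted from 1, Pdcd1 (ENSMUSG00000026285.7) lies on chromosome 1 from 94038305 to 94052553 on the minus strand. Havcr2 lies on chromosome 11 from 46454935 to 46481255 (plus strand) and Lag3 on chromosome 6 from 124904361 to 124911705 (minus strand). Tigit lies on chromosome 16 from 43648867 to 43664146 (minus strand), Cd226 on chromosome 18 from 89176967 to 89272229 (plus strand) and Cd160 on chromosome 3 from 96798763 to 96829351 (minus strand). Tox lies on chromosome 4 from 6686353 to 6991557 (minus strand), Tox2 on chromosome 2 from 163203125 to 163324170 (plus strand) and Entpd1 on chromosome 19 from 40612366 to 40741602 (plus strand). Cd160 overlaps Pdzk1 on the opposite strand, and Entpd1 overlaps Gm16027. The overlapping genes held at most 14 and 10 counts in any library.

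Gene counts ranged from 12656302 to 24213689 per library (median 17870047.5), so that 3 counts corresponded to 0.124 to 0.237 CPM, the unit of counts after scaling for library size. Yap1 was higher in WT than in Yap-cKO T-cell TILs. It was at 14.8 to 27.3 CPM in the WT libraries against 1.63 to 5.58 in the Yap-cKO libraries of CD4+ TILs. In CD8+ TILs it was at 13 to 27.1 against 2.37 to 6.37 CPM. In TDLN T cells it was at 4.52 CPM or less in both genotypes and the groups overlapped. Cd4 was at most 5.72 CPM in CD8+ libraries and Cd8a at most 7.43 CPM in CD4+ libraries. T-cell TIL libraries of the genotypes differed in other RNA. The summed CPM of 8 melanoma genes was 5766 to 17913 in WT and 172 to 2389 in Yap-cKO CD4+ TILs, and 3937 to 14099 against 43.4 to 2581 in CD8+ TILs. The part of such other RNA in the Yap1 difference between TILs of the genotypes was not tested. The sum of 15 T-lineage genes, such as Cd3e and Lck, was 1610, 4432, 6316 and 4542 CPM in WT CD4+ TILs and 6513 to 10800.1 CPM in Yap-cKO CD4+ TILs. In CD8+ TILs it was 1728 to 5248 CPM in WT libraries against 5661 to 6762 CPM in Yap-cKO. WT CD4+ TIL replicate 1 stood lowest of the T-cell TIL libraries in T-lineage RNA and highest in melanoma RNA. Summed over 4 Y-linked genes, WT replicates 1 to 3 of each population and tissue held 43.3 to 423 CPM. In contrast, WT replicate 4 and all Yap-cKO libraries held 2.51 to 19.0 CPM. Y-linked expression, and with it the likely sex of the mice, was therefore largely aligned with genotype. Sex and genotype largely cannot be told apart in the comparisons of genotype. In bulk RNA, fewer cells of a type and less RNA per cell cannot be told apart.

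**Figure D1:**
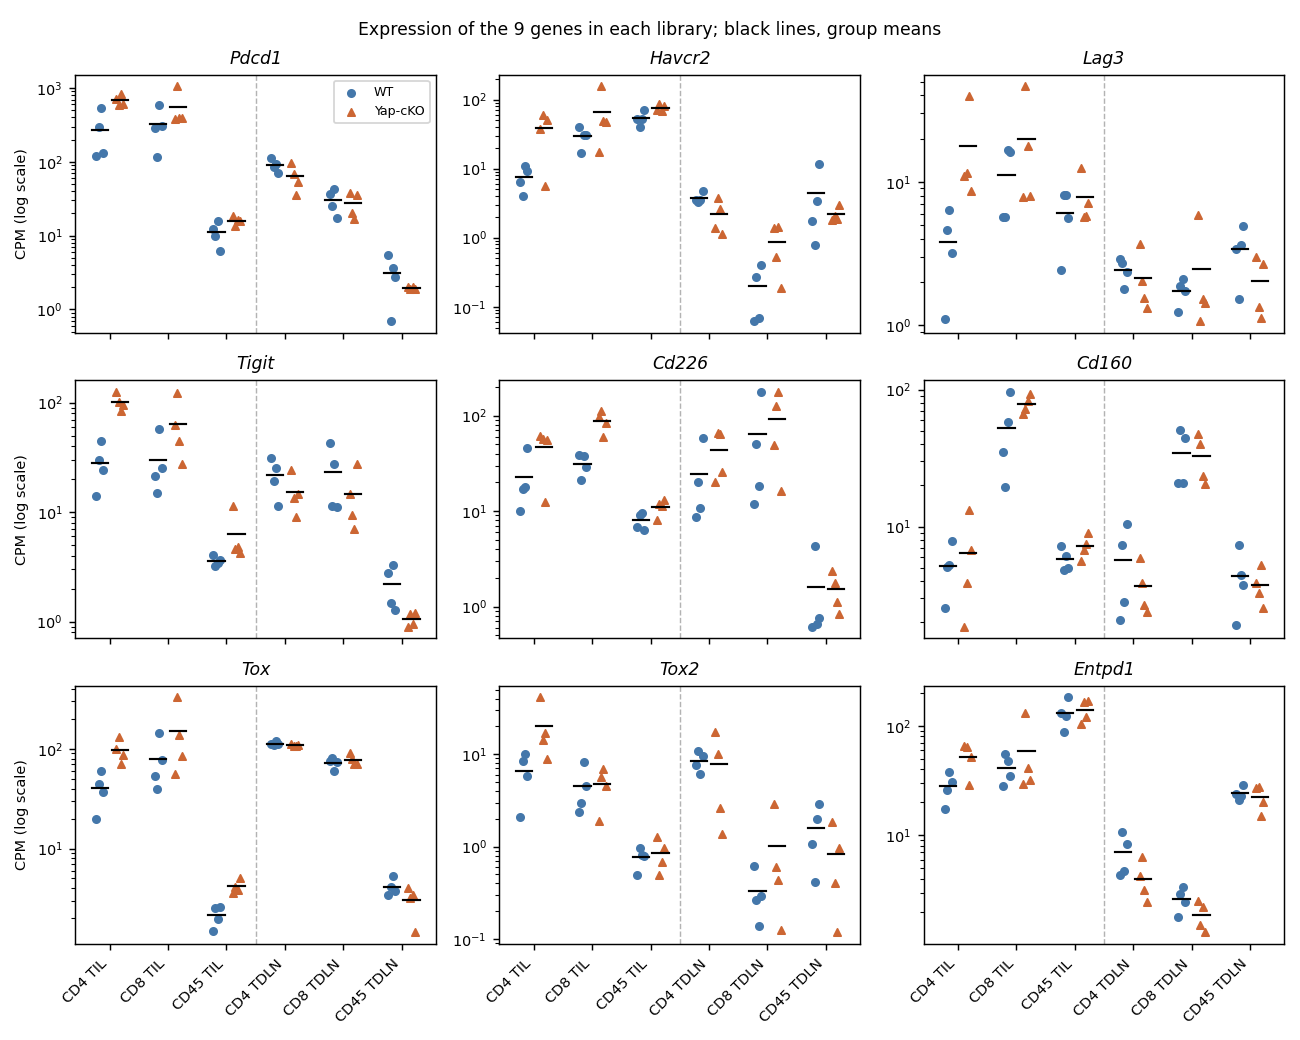
CPM of each of the 9 genes (log axis) in the 48 libraries, by group, with WT libraries as circles, Yap-cKO libraries as triangles and group means as black lines. Pdcd1 in T-cell TILs (115 to 1058 CPM) sat above every other group, Cd160 was high in CD8+ cells of both tissues, and Tox was at 5.26 CPM or less in all CD45+CD4-CD8- libraries.

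The level of each gene was first compared with that of the others per transcript length, in TPM, which scales counts by transcript length and depth. In Yap-cKO CD4+ TILs the mean was 533 TPM for Pdcd1, 196 for Tigit, 45.4 for Tox, 43.9 for Entpd1, 36.4 for Cd226, 22.9 for Havcr2, 12.5 for Lag3, 11.2 for Tox2 and 8.01 for Cd160. In WT CD8+ TILs Pdcd1 was again highest, at 255 TPM, followed by Cd160 at 71.5, Tigit at 55.0 and Tox at 33.2 TPM. In CD45+CD4-CD8- TILs the order was different, with Entpd1 at 60.7 TPM and Havcr2 at 20.9 TPM in WT and no other member above 6.18 TPM.

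Within a gene, levels are given as TMM-normalized CPM. Pdcd1 was at 681 ± 109 CPM in Yap-cKO CD4+ TILs, 553 ± 336 in Yap-cKO CD8+ TILs, 327 ± 201 in WT CD8+ TILs and 271 ± 197 in WT CD4+ TILs (SD, n = 4 each). Neighbours in this order overlapped, and the lowest of their libraries, at 115 CPM, was above all others of the series, of which the highest was 113 CPM in a WT CD4+ TDLN. The TDLN T cells came next, at 90.8 ± 17.5 CPM in WT libraries against 63.5 ± 26.2 CPM in Yap-cKO CD4+ cells and 30.3 ± 11.3 and 27.8 ± 10.7 CPM in CD8+ cells. CD45+CD4-CD8- cells held 6.11 to 18.6 CPM in tumors and 0.691 to 5.49 CPM in TDLNs. Havcr2 was highest in CD45+CD4-CD8- TILs, at 76.3 ± 8.83 CPM in Yap-cKO and 53.6 ± 12.3 CPM in WT mice, where 10 myeloid genes summed to 18594 to 33466 CPM. Yap-cKO CD8+ TILs, at 67.2 ± 60.9 CPM, overlapped both. Entpd1 also led in CD45+CD4-CD8- TILs, at 140 ± 31.6 CPM in Yap-cKO and 131 ± 38.9 CPM in WT, and these overlapped the Yap-cKO CD8+ TILs through a single library at 131 CPM.

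Tigit had the same 4 leading groups as Pdcd1, and ranged from 101 ± 17.4 CPM in Yap-cKO CD4+ TILs to 1.06 ± 0.155 CPM in Yap-cKO CD45+CD4-CD8- TDLN cells. Cd226 had its highest means in CD8+ cells, at 92.0 ± 72.4 CPM in Yap-cKO TDLNs, 87.1 ± 21.5 CPM in Yap-cKO TILs and 64.7 ± 77.2 CPM in WT TDLNs, and neighbouring groups overlapped from the highest down to WT CD45+CD4-CD8- TILs at 7.99 ± 1.65 CPM. Cd160 separated CD8+ cells from the rest. Its 4 CD8+ groups had means of 33.0 to 78.4 CPM and its 8 other groups means of 3.70 to 7.21 CPM, and their ranges did not overlap. Tox was high in T cells, at 152 ± 123 CPM in Yap-cKO CD8+ TILs, 113 ± 4.43 CPM in WT CD4+ TDLN cells, 109 ± 3.46 CPM in Yap-cKO CD4+ TDLN cells and 40.3 ± 16.9 CPM in WT CD4+ TILs, the lowest T-cell group. The group means of Lag3 were at most 19.9 CPM, and Tox2 had its highest mean, 20.3 ± 14.4 CPM, in Yap-cKO CD4+ TILs and its lowest, 0.328 ± 0.204 CPM, in WT CD8+ TDLN cells.

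TILs were compared with TDLN cells of the same genotype and population by edgeR's quasi-likelihood test, a gene being called where the Benjamini-Hochberg adjusted p was under 0.05 and the log2 fold change beyond 1 in size. Pdcd1, Havcr2 and Entpd1 were higher in TILs in all 6 comparisons. In WT CD4+ cells, where 37.3% of all tested genes were called, 22.9% higher and 14.4% lower, 4 of 9 members passed, 3 higher and Tox lower, with a median log2 fold change of 0.39 against -0.03 over all genes. In WT CD8+ cells 5 of 9 were higher (37.7% of genes called, 22.5% higher, median 2.70 against -0.02), and in WT CD45+CD4-CD8- cells 4 of 9 (39.9%, 21.9% higher, median 0.79 against -0.08). In Yap-cKO mice 5 of 9 were higher in CD4+ cells (18.5%, 12.4% higher, median 2.74 against -0.04), 6 of 9 in CD8+ cells (15.9%, 10.9% higher, median 2.32 against 0.02) and 6 of 9 in CD45+CD4-CD8- cells (40.3%, 21.8% higher, median 2.49 against -0.09). In the 4 comparisons where 37.3% to 40.3% of genes were called, a count of 4 to 6 of 9 members is near or moderately above that background.

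**Figure D2:**
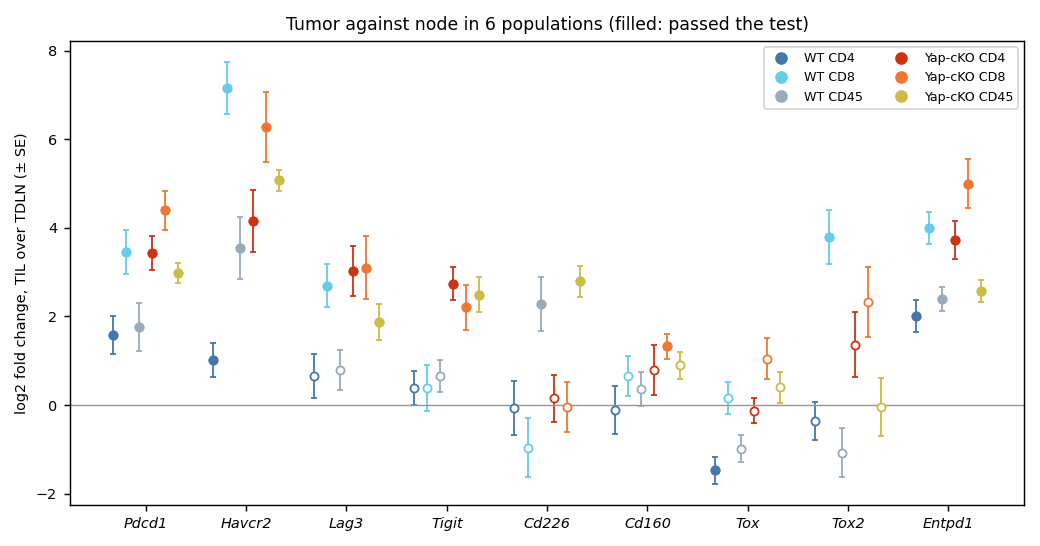
Log2 fold change between TILs and TDLN cells (y axis, ± SE) for each gene (x axis) in the 6 combinations of genotype and population, 4 libraries against 4, with filled symbols for the genes that passed the test. Pdcd1, Havcr2 and Entpd1 lie above the line of no change in all 6, and Tox lies below it at -1.48 in WT CD4+ cells.

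Among the receptors, Pdcd1 read 118, 295, 541 and 130 CPM in WT CD4+ TILs and 113, 86.1, 93.0 and 70.9 CPM in WT CD4+ TDLN cells. All TIL libraries were above all TDLN libraries, although 2 of the 4 only narrowly, and the log2 fold change was 1.58 ± 0.43 (SE, adjusted p = 0.00981, edgeR). In Yap-cKO CD4+ cells it was 710, 585, 823 and 605 CPM in TILs and 96.9, 68.7, 35.1 and 53.2 CPM in TDLNs. The groups were far apart, at 3.43 ± 0.378 (adjusted p = 0.000373, edgeR). In CD8+ cells the log2 fold change of Pdcd1 was 3.46 ± 0.50 in WT and 4.40 ± 0.444 in Yap-cKO mice (adjusted p = 0.000238 and 0.000125, edgeR). In CD45+CD4-CD8- cells it was 1.77 ± 0.538 in WT, a call lost without WT TIL replicate 3 (1.56), and 2.98 ± 0.229 in Yap-cKO mice. The 15 T-lineage genes summed to 193 to 253 CPM in these TILs and 405 to 631 CPM in the TDLN cells, and the 10 myeloid genes to 173 to 3769.9 CPM in the TDLN cells beside the tumor values above; the part of either in the tissue differences was not tested.

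Havcr2, the receptor TIM-3, was nearly absent from CD8+ TDLN cells, with 1, 5, 1 and 7 counts in the WT and 24, 8, 29 and 3 in the Yap-cKO libraries. In CD8+ TILs it was at 39.6, 16.6, 30.6 and 30.9 CPM in WT libraries against 17.6, 156, 48.4 and 46.6 CPM in Yap-cKO mice. These gave log2 fold changes of 7.17 ± 0.588 and 6.29 ± 0.793 (adjusted p = 6.6e-06 and 0.000448, edgeR), the largest among the members, on a denominator of a few counts. In WT CD4+ cells the difference was small, at 6.33, 4.07, 10.9 and 9.21 CPM in TILs and 3.56, 3.31, 3.46 and 4.82 CPM in TDLNs. The groups overlapped, and the log2 fold change of 1.02 ± 0.379 (adjusted p = 0.0423, edgeR) dropped under 1 without WT TIL replicate 3 or 4 or without WT TDLN replicate 1, 2 or 3 (0.88 to 0.99). Yap-cKO CD4+ cells had 4.16 ± 0.70 (adjusted p = 0.00235), and the CD45+CD4-CD8- cells 3.55 ± 0.699 in WT and 5.08 ± 0.24 in Yap-cKO mice. The 10 myeloid genes summed to 266 to 728 CPM in WT and 103 to 611 CPM in Yap-cKO CD4+ TILs and to 291 to 631 and 723 to 1962 CPM in CD8+ TILs, against 13.3 to 39.3 CPM in all T-cell TDLN libraries. Their part in the tissue differences of Havcr2 and Entpd1 was not tested.

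Lag3 passed in WT CD8+ cells (log2 fold change 2.70 ± 0.486, adjusted p = 0.000989, edgeR) and in all 3 Yap-cKO populations, at 3.03 ± 0.57 in CD4+, 3.10 ± 0.715 in CD8+ and 1.87 ± 0.403 in CD45+CD4-CD8- cells. Tigit passed in the 3 Yap-cKO populations, at 2.74 ± 0.365, 2.21 ± 0.504 and 2.49 ± 0.391, and had values of 0.39, 0.39 and 0.66 in the WT populations. Cd226, the activating counterpart, passed only in CD45+CD4-CD8- cells, at 2.28 ± 0.609 in WT and 2.79 ± 0.356 in Yap-cKO mice, and lay between -0.96 and 0.15 in the 4 T-cell comparisons. Cd160 passed in Yap-cKO CD8+ cells alone (1.33 ± 0.284, adjusted p = 0.00821). Of the receptors that did not pass, Lag3 was at 0.66 in WT CD4+ and 0.79 in WT CD45+CD4-CD8- cells, and Cd160 at -0.11, 0.65 and 0.37 in the WT populations (CD4+, CD8+ and CD45+CD4-CD8-) and at 0.79 in Yap-cKO CD4+ and 0.90 in Yap-cKO CD45+CD4-CD8- cells.

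Entpd1 rose in TILs of every population. In CD8+ cells it was at 28.2, 54.9, 48.2 and 35.2 CPM in WT TILs against 1.79 to 3.41 CPM in WT TDLNs, and at 29.3, 131, 40.9 and 32.1 CPM in Yap-cKO TILs against 1.31 to 2.51 CPM. The log2 fold changes were 4.00 ± 0.361 and 5.0 ± 0.559 (adjusted p = 1.18e-05 and 0.00022, edgeR), and no library overlapped. In CD4+ cells they were 2.01 ± 0.366 in WT and 3.73 ± 0.424 in Yap-cKO mice, and in CD45+CD4-CD8- cells 2.40 ± 0.265 and 2.58 ± 0.254.

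Tox, in contrast, was lower in WT CD4+ TILs, at 19.8, 44.0, 60.6 and 36.8 CPM, than in WT CD4+ TDLN cells, at 113, 108, 119 and 111 CPM (log2 fold change -1.48 ± 0.30, adjusted p = 0.00169, edgeR). The groups did not overlap. Per 10000 counts of the 15 T-lineage genes, Tox was at 81.1 to 123 in these TILs and 80.8 to 149 in the TDLNs, which overlapped fully, and with libraries scaled on those genes the log2 fold change was -0.17 (adjusted p = 0.72, edgeR). Pdcd1 stayed apart on the same scale, at 287 to 857 in WT CD4+ TILs and 64.2 to 107 in WT CD4+ TDLN cells. This scaling put the median of all genes at 1.57 in WT CD4+ cells and at 1.70 in WT CD8+ cells. It added calls for Lag3 (1.84) and Tigit (1.75) there, and for Tigit (1.92), Cd160 (2.10) and Tox (1.62) in WT CD8+ cells. Tox2 was higher in WT CD8+ TILs (3.79 ± 0.607, adjusted p = 0.000463), where the TDLN libraries held 10, 5, 2 and 5 counts. Neither factor passed in the other comparisons of tissue, where Tox was at 0.16 in WT CD8+ and -0.99 in WT CD45+CD4-CD8- cells and at -0.12, 1.05 and 0.40 in the Yap-cKO populations. Tox2 was at -0.36 in WT CD4+ and -1.08 in WT CD45+CD4-CD8- cells and at 1.37, 2.32 and -0.05 in the Yap-cKO populations.

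CD4+ cells were next compared with CD8+ cells of the same tissue and genotype, a negative value being lower in CD4+ cells. Same-numbered CD4+ and CD8+ libraries deviated together in WT TILs, Yap-cKO TILs and WT TDLNs, so the value with the replicate number as a block is given where it changes a call. In WT TILs 0 of 9 members passed edgeR's test (0.119% of genes called), against 4 at an unadjusted p under 0.05 and 2 by DESeq2. With the block 2 passed (0.722%), Cd160 at -3.25 (adjusted p = 0.00722) and Havcr2 at -2.01 (adjusted p = 0.014). Their values without it were -3.37 (adjusted p = 0.0532) and -1.99 (adjusted p = 0.113). Pdcd1 was at -0.32, Lag3 at -1.58, Tigit at -0.13, Cd226 at -0.50, Tox at -1.02, Tox2 at 0.49 and Entpd1 at -0.60. In Yap-cKO TILs only Cd160 passed (-3.65 ± 0.526, adjusted p = 0.0062, 2.49% of genes called, 1.13% lower, and 4.4% with the block), with 1.86, 3.87, 13.3 and 6.75 CPM in CD4+ and 66.7, 72.5, 82.0 and 92.5 CPM in CD8+ TILs. The 2 groups were far apart. Tox2 (2.08, adjusted p = 0.0953, edgeR) was the next member, and Pdcd1 was at 0.28, Havcr2 at -0.80, Lag3 at -0.23, Tigit at 0.67, Cd226 at -0.89, Tox at -0.65 and Entpd1 at -0.16.

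In WT TDLNs 4 of 9 members passed (3.76% of genes called, 2.16% higher and 1.6% lower). Pdcd1 (1.57 ± 0.308), Havcr2 (4.15 ± 0.527) and Tox2 (4.65 ± 0.452) were higher in CD4+ cells and Cd160 (-2.60 ± 0.54) was lower (adjusted p = 0.0176, 0.00156, 0.000368 and 0.0236, edgeR). Tox2 read 7.57, 10.9, 6.09 and 9.48 CPM in the CD4+ libraries and 0.139 to 0.617 CPM in the CD8+ libraries, and the counts of Havcr2 in CD8+ cells were the few given above. The block added Cd226 (-1.08, adjusted p = 0.0111) and Entpd1 (1.34, adjusted p = 0.0177), with 6.97% of genes called. Without it these were at -1.41 and 1.39, Lag3 at 0.48, Tigit at -0.11 and Tox at 0.63. The call of Pdcd1 was lost without CD4+ replicate 1 or 3 or CD8+ replicate 2, and that of Cd160 without CD4+ replicate 1, 2 or 3 or CD8+ replicate 2 and with T-lineage scaling (adjusted p = 0.0957, edgeR). In Yap-cKO TDLNs only Cd160 passed (-3.16 ± 0.385, adjusted p = 0.00153, 2.49% of genes called, 1.3% lower). Pdcd1 was at 1.18, Havcr2 at 1.29, Lag3 at -0.21, Tigit at 0.07, Cd226 at -1.12, Tox at 0.46, Tox2 at 2.94 and Entpd1 at 1.06, and of these DESeq2 called Pdcd1 and Tox2.

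Yap-cKO cells were compared with WT cells of the same population and tissue. In CD4+ TILs 4 of 9 members were higher in Yap-cKO mice, Havcr2, Lag3, Tigit and Tox, and none was lower, where 8.02% of all tested genes were called, 1.36% higher and 6.66% lower. The log2 fold change was above 0 for all 9 members, its median being 1.45 against 0.14 over all genes, and 4 of 9 had groups that did not overlap in CPM, as had 17.1% of all genes. Tigit was at 14.1, 30.1, 44.4 and 24.2 CPM in WT libraries against 125, 101, 84.5 and 94.4 CPM in Yap-cKO CD4+ TILs. Every Yap-cKO library was above every WT library, and the log2 fold change was 1.96 ± 0.362 (adjusted p = 0.0125, edgeR). Lag3 was at 1.10, 4.61, 6.33 and 3.17 CPM in WT libraries against 11, 11.6, 39.6 and 8.67 CPM in Yap-cKO mice, also without overlap (2.34 ± 0.64, adjusted p = 0.0472). Tox was at 99.8, 131, 71.3 and 86.8 CPM in Yap-cKO TILs, all above the WT values given above (1.38 ± 0.367, adjusted p = 0.0433). Havcr2 was at 37.0, 59.4, 5.52 and 50.9 CPM in Yap-cKO TILs, so that replicate 3 lay within the WT range of 4.07 to 10.9 CPM and the other three far above it (2.43 ± 0.62, adjusted p = 0.0375).

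Pdcd1 did not pass in CD4+ TILs, although its lowest Yap-cKO library, at 585 CPM, was above its highest WT library, at 541 CPM (1.45 ± 0.473, adjusted p = 0.0877, edgeR). Without WT replicate 3 it passed (1.93, adjusted p = 0.0196). Tox2 (1.72 ± 0.564, adjusted p = 0.0897), Entpd1 (1.01 ± 0.353, adjusted p = 0.109), Cd226 (1.11 ± 0.563, adjusted p = 0.249) and Cd160 (0.44 ± 0.597, adjusted p = 0.669) overlapped between genotypes. Without Yap-cKO replicate 3, the library where Cd226 was at 12.5 CPM and Havcr2 at 5.52 CPM, Cd226 (1.39), Tox2 (1.76) and Entpd1 (1.17) passed as well. The calls of Lag3 and Tox were lost without any of the replicates 1, 2 and 4 of either genotype (adjusted p = 0.0604 to 0.122 and 0.0814 to 0.125, edgeR), and that of Havcr2 without any library other than Yap-cKO replicate 3 (0.0635 to 0.145). Tigit passed in each of the 8 fits that left out a library. DESeq2 called 6 members, the same 4 with Pdcd1 and Tox2.

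Other RNA moved with genotype in these TILs. The sums of the 15 T-lineage genes and of the 8 melanoma genes given above did not overlap between genotypes, and 6 regulatory T cell genes summed to 515 to 1372 CPM in WT libraries against 2284 to 3373 CPM in Yap-cKO CD4+ TILs, with Foxp3, which defines regulatory T cells, at 81.3 to 255 and 395 to 576 CPM. The sum of 16 stromal genes, at 270 to 905 CPM in WT against 90.4 to 178 CPM in Yap-cKO libraries, did not overlap either. The log2 fold change of all 15 T-lineage genes was above 0 (median 1.02), and the regulatory T cell genes a median of 1.68 with 3 of 6 called. With libraries scaled on the T-lineage genes, the median of all genes was -1.15 and 0 of 9 members passed in CD4+ TILs (edgeR; 1 at an unadjusted p under 0.05, not run with DESeq2). On that scale 8 of 9 members remained positive, with a median of 0.50. Havcr2 was at 1.41, Lag3 at 1.27, Tigit at 1.00 and Tox at 0.44 (adjusted p = 0.155, 0.104, 0.116 and 0.49, edgeR), and Cd160 at -0.76. Per 10000 T-lineage counts, Lag3 was at 6.86 to 10.4 in WT and 13.3 to 36.6 in Yap-cKO CD4+ TILs, and Pdcd1 at 287 to 857 and 762 to 1006. With the Y-linked genes as a covariate 0 of 9 passed (edgeR; 4 at an unadjusted p under 0.05, not run with DESeq2), with log2 fold changes of 2.17 for Tigit, 2.56 for Lag3, 2.36 for Havcr2 and 1.60 for Tox. The part of regulatory T cell RNA in these differences was not tested. T-lineage, regulatory T cell, melanoma or stromal RNA and genotype cannot be told apart, because the groups overlapped in none of these sums. The same largely holds for Y-linked expression, where only WT replicate 4 lay with the Yap-cKO libraries.

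**Figure D3:**
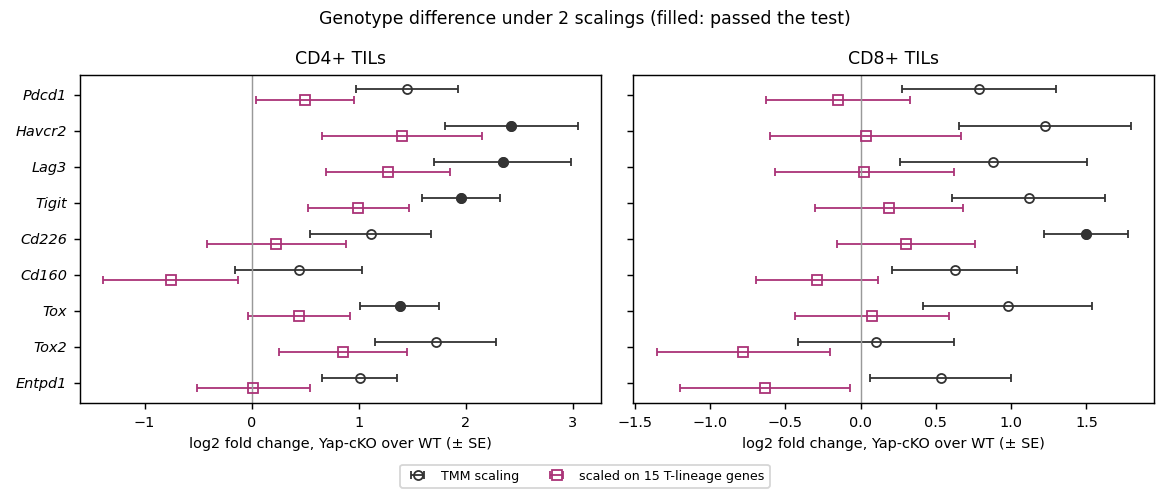
Log2 fold change of Yap-cKO over WT (x axis, ± SE, 4 libraries against 4) for each gene in CD4+ TILs and CD8+ TILs, with TMM normalization and with libraries scaled on 15 T-lineage genes; filled symbols passed the test. Filled symbols number 4 in CD4+ TILs and 1 in CD8+ TILs with TMM, and 0 with T-lineage scaling.

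In CD8+ TILs only Cd226 passed (12.2% of genes called, 3.03% higher). It was at 38.5, 21, 37.4 and 29.1 CPM in WT libraries against 95.6, 111, 59.7 and 82.8 CPM in Yap-cKO CD8+ TILs, without overlap (1.5 ± 0.278, adjusted p = 0.0184, edgeR). It was the 1 member of 9 whose groups did not overlap, beside 20.6% of all genes. The call was lost without Yap-cKO replicate 2 (1.36, adjusted p = 0.0545), with T-lineage scaling (0.30, adjusted p = 0.603), which put the median of all genes at -1.12, and with the Y-linked covariate (1.66, adjusted p = 0.122). All 9 members were positive with TMM, with a median of 0.88 against 0.08 over all genes, and 5 of 9 with T-lineage scaling. Of those that did not pass, Pdcd1 was at 0.79, Havcr2 at 1.22, Lag3 at 0.88, Tigit at 1.12, Cd160 at 0.62, Tox at 0.98, Tox2 at 0.10 and Entpd1 at 0.53. Beside the T-lineage and melanoma sums given above, the sum of the 10 myeloid genes was 291 to 631 CPM in WT libraries against 723 to 1962 CPM in Yap-cKO, that of 6 dendritic cell genes 25.3 to 49.1 against 55.7 to 66.4 CPM and that of the 16 stromal genes 154 to 2165 against 71.6 to 93.9 CPM. None of the 3 overlapped between genotypes, and their part in these differences was not tested. A single library, Yap-cKO CD8+ TIL replicate 2, was highest of its group for Pdcd1 (1058 CPM beside 378 to 389), Havcr2 (156 beside 17.6 to 48.4), Lag3 (46.3 beside 7.80 to 17.7), Tigit (122 beside 27.4 to 61.8), Tox (330 beside 56.5 to 138) and Entpd1 (131 beside 29.3 to 40.9). Its myeloid sum was 1885 CPM, within the range of the other three. Between tissues, the 6 calls in Yap-cKO CD8+ cells held in each of the 8 fits that left out a library, this one included. Without WT replicate 3 Tigit passed too in the comparison of genotypes (1.70, adjusted p = 0.0385).

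In CD45+CD4-CD8- TILs 0 of 9 members passed edgeR's test (0.991% of genes called) and 0 by DESeq2, with 3 at an unadjusted p under 0.05. The median was 0.45 against 0.01 over all genes. Tox was at 1.48 to 2.57 CPM in WT libraries against 3.60 to 5.11 CPM in Yap-cKO mice and Tigit at 3.22 to 4.08 and 4.21 to 11.4 CPM, and these 2 of 9 did not overlap, as did 11.5% of all genes. The log2 fold changes were 0.94 for Tox, 0.76 for Tigit, 0.49 for Pdcd1, 0.48 for Havcr2, 0.45 for Cd226, 0.33 for Lag3, 0.30 for Cd160, 0.11 for Tox2 and 0.06 for Entpd1. In TDLNs 0 members passed by edgeR or DESeq2. They were 0 of 9 in CD4+ cells (0.0462% of genes called, median -0.50 against 0.00), 0 of the 7 tested in CD8+ cells (0.0158%, median -0.05 against 0.01) and 0 of 9 in CD45+CD4-CD8- cells (0.0596%, median -0.68 against 0.00). At an unadjusted p under 0.05 there were 0, 0 and 1 members. Havcr2 and Tox2 were under the count filter in CD8+ TDLN cells. In CD4+ TDLN cells Pdcd1 was at -0.52, Havcr2 at -0.77, Lag3 at -0.19, Tigit at -0.50, Cd226 at 0.85, Cd160 at -0.61, Tox at -0.05, Tox2 at -0.12 and Entpd1 at -0.79. In CD8+ TDLN cells Pdcd1 was at -0.13, Lag3 at 0.50, Tigit at -0.67, Cd226 at 0.53, Cd160 at -0.05, Tox at 0.11 and Entpd1 at -0.47. Tigit (-1.04) and Havcr2 (-1.0) were lowest in CD45+CD4-CD8- TDLN cells, where Pdcd1 was at -0.68, Lag3 at -0.71, Cd226 at -0.08, Cd160 at -0.22, Tox at -0.42, Tox2 at -0.87 and Entpd1 at -0.08.

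Whether the genotype difference itself differed between TILs and TDLNs was tested as an interaction over 16 libraries. In CD4+ cells 2 of 9 members passed (1.36% of genes called, 0.205% higher), Havcr2 at 3.19 ± 0.771 (adjusted p = 0.0495, edgeR) and Tigit at 2.45 ± 0.522 (adjusted p = 0.0309). Pdcd1 (1.97 ± 0.583, adjusted p = 0.0985), Entpd1 (1.79 ± 0.524, adjusted p = 0.0939) and Tox (1.43 ± 0.393, adjusted p = 0.0751) did not pass, nor did Lag3 (2.53), Tox2 (1.84), Cd160 (1.05) or Cd226 (0.27). In single fits that left out a library Havcr2 lost its call in 14 of 16 and Tigit in 12 of 16. With T-lineage scaling 0 of 9 passed (Havcr2 2.04, Tigit 1.30). In CD8+ cells 0 of 9 passed (0.422%) and in CD45+CD4-CD8- cells 0 of 9 (0% of genes called), by edgeR and by DESeq2, with 1 and 2 at an unadjusted p under 0.05. The CD8+ interactions were 0.89 for Pdcd1, -0.90 for Havcr2, 0.34 for Lag3, 1.76 for Tigit, 0.92 for Cd226, 0.65 for Cd160, 0.85 for Tox, -1.53 for Tox2 and 0.97 for Entpd1. Those of CD45+CD4-CD8- cells were 1.16 for Pdcd1, 1.47 for Havcr2, 1.03 for Lag3, 1.79 for Tigit, 0.51 for Cd226 and for Cd160, 1.35 for Tox, 0.98 for Tox2 and 0.14 for Entpd1.

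TIGIT and DNAM-1 compete for the same ligands, so the ratio of Tigit to Cd226 counts was compared within each library. In CD4+ TILs it was 0.525 to 2.48 in WT and 1.70 to 6.72 in Yap-cKO mice, and the mean log2 ratio was 0.93 higher in Yap-cKO mice (exact permutation test, two-sided, p = 0.257, adjusted p = 0.514 over 6 comparisons). In CD8+ TILs it was 0.560 to 1.53 in WT and 0.331 to 1.10 in Yap-cKO mice (difference -0.40, exact permutation p = 0.429). In TDLNs the ratio spread more widely, from 0.198 to 3.54 in WT and 0.144 to 1.2 in Yap-cKO CD4+ cells (difference -1.57, exact permutation p = 0.229) and from 0.0634 to 3.53 and 0.0398 to 1.67 in CD8+ cells (difference -1.42, exact permutation p = 0.457). The CD45+CD4-CD8- cells had differences of 0.20 in TILs and -1.32 in TDLNs (exact permutation p = 0.80 and 0.20). None of the 6 passed, where the smallest p that 4 against 4 libraries allow is 0.0286, and the genotypes overlapped in all 6.

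**Figure D4:**
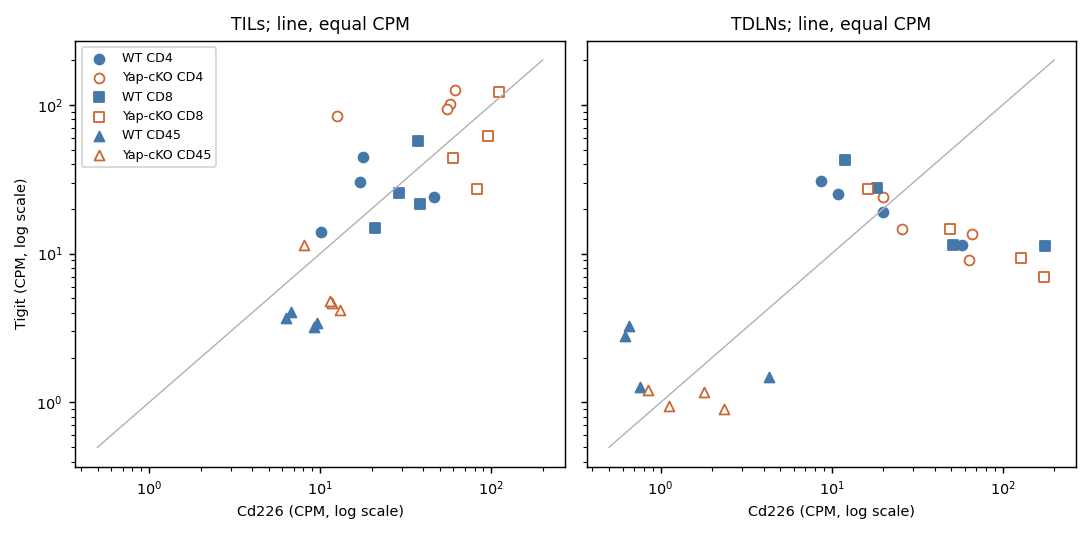
Tigit against Cd226 in CPM (log axes) in each library, for TILs and TDLNs, with a line of equal CPM. Circles are CD4+, squares CD8+ and triangles CD45+CD4-CD8- libraries, filled for WT and open for Yap-cKO. In TILs the genotypes did not overlap in Tigit (CD4+) or in Cd226 (CD8+). Within genotype the correlation there was 0.366 in CD4+ and 0.657 in CD8+ cells, and neither passed. In TDLNs the T-cell libraries high in Cd226, up to 178 CPM, were low in Tigit.

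Genes listed as ligands or partners of these receptors, other inhibitory receptors and other genes of the exhaustion program were counted as lists. In CD4+ TILs of Yap-cKO against WT mice 2 of 13 tested ligand and partner genes were higher and 1 lower (median log2 fold change 0.36). Of the other lists, 1 of 10 other inhibitory receptors (median 1.23) and 2 of 19 exhaustion-program genes (median 1.18) were higher. Beside them, 8.02% of all tested genes were called, 1.36% higher, with an all-gene median of 0.14. The called ligand and partner genes were Pdcd1lg2, which encodes PD-L2 (1.74), Fgl2 (2.17) and Ceacam1 (-1.69). Of these, Fgl2 encodes none of the ligands named above. The others called were Klrg1, a receptor for cadherins (2.17), Tnfrsf9, which encodes 4-1BB (1.80), and Prdm1, which encodes BLIMP-1 (1.67). In these CD4+ TILs the 8 melanoma genes had a median of -3.18, with 5 of 8 called lower. The part of melanoma RNA in the value of Ceacam1 was not tested. In CD8+ TILs 1 ligand gene, Nectin2, which encodes CD112 (-3.16), was lower. The 8 melanoma genes had a median log2 fold change of -3.16 in the same comparison, with 3 of 8 called lower, and the part of melanoma RNA in the value of Nectin2 was not tested. Cd96 (1.71), Btla (1.89) and Lair1 (1.48), 3 of 10 other receptors, were higher (median 1.39), as were Eomes (1.35), Slamf6 (1.23) and Nr4a2 (1.90), 3 of 19 exhaustion-program genes (median 1.01), beside 12.2% of all tested genes called, 3.03% higher, and an all-gene median of 0.08. None of the 3 lists had a called gene in CD45+CD4-CD8- TILs or in TDLNs (edgeR). In the same comparisons the 15 T-lineage genes had medians of 1.02 in CD4+ and 0.87 in CD8+ TILs, and the relation of the lists to them was not tested.

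Between tissues, ligand and partner genes were called in both directions in CD4+ cells. In WT mice 5 of 13 were higher in TILs and 2 lower, beside 22.9% and 14.4% of all genes. In Yap-cKO mice 5 were higher and 1 lower, beside 18.5% of all genes called, 12.4% higher. Elsewhere they were called only higher. In CD8+ cells 4 of 13 were higher in either genotype, beside 22.5% of all genes in WT and 10.9% in Yap-cKO mice. In CD45+CD4-CD8- cells 3 of 13 were higher in WT and 6 in Yap-cKO mice, beside 21.9% and 21.8% of all genes. The 3 of 13 are near that background. In WT CD4+ cells 6 exhaustion-program genes were higher in TILs and 7 lower of 19, beside 22.9% and 14.4% of all genes, and in WT CD8+ cells 7 and 7, beside 37.7% of all genes called. Bhlhe40 (1.82 and 2.57) was among the higher and Tcf7, a factor of naive and stem-like T cells (-2.39 and -2.44), among the lower. In Yap-cKO mice 9 were higher and 2 lower in CD4+ cells and 9 and 3 in CD8+ cells, beside 18.5% and 15.9% of all genes called. Klrg1 was higher in TILs in WT (2.60 in CD4+, 5.95 in CD8+) and in Yap-cKO mice (5.30 and 7.22). Fgl2 and Lgals3 were higher in all 6 comparisons of tissue, with log2 fold changes of 1.84 to 5.55 and 4.31 to 6.86. The myeloid sums given above were also higher in TILs, and the melanoma genes had median log2 fold changes of 6.21 to 11.5 in these 6 comparisons. The part of myeloid or melanoma RNA in the values of Fgl2, Lgals3 and the other ligand and partner genes was not tested. Between T-cell populations Eomes was lower in CD4+ than in CD8+ cells in all 4 comparisons (-4.42 to -3.42).

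Transcript assignments within the genes were compared where a gene has more than 1 transcript. Pdcd1 and Tigit have a single annotated transcript. Entpd1 counts were divided between Entpd1-204, which begins just after the upstream start, and Entpd1-201, which begins at the downstream start, with 54.5% and 38.6% of pooled T-cell TIL counts. The share of Entpd1-204 was 51.8% to 67.6% in WT CD4+ TILs and 34.3% to 54.3% in WT CD4+ TDLN cells, and 46.9% to 66.6% and 16.1% to 60.9% in Yap-cKO mice, so the tissues overlapped in both genotypes. The TDLN shares rest on as few as 76.2 counts of the gene in WT and 43.5 in Yap-cKO mice. Tox-203, a transcript that retains an intron, took 10.3% to 15.4% of Tox counts in WT CD4+ TILs and 2.92% to 6.48% in WT CD4+ TDLN cells, and 9.81% to 14.8% and 1.42% to 8.92% in Yap-cKO CD4+ cells. TILs and TDLNs did not overlap in either genotype (no test was made), and in WT CD8+ cells the shares, 7.31% to 10.1% and 2.29% to 7.78%, overlapped. The promoter windows printed above are those of the 2 Entpd1 starts.

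**Figure D5:**
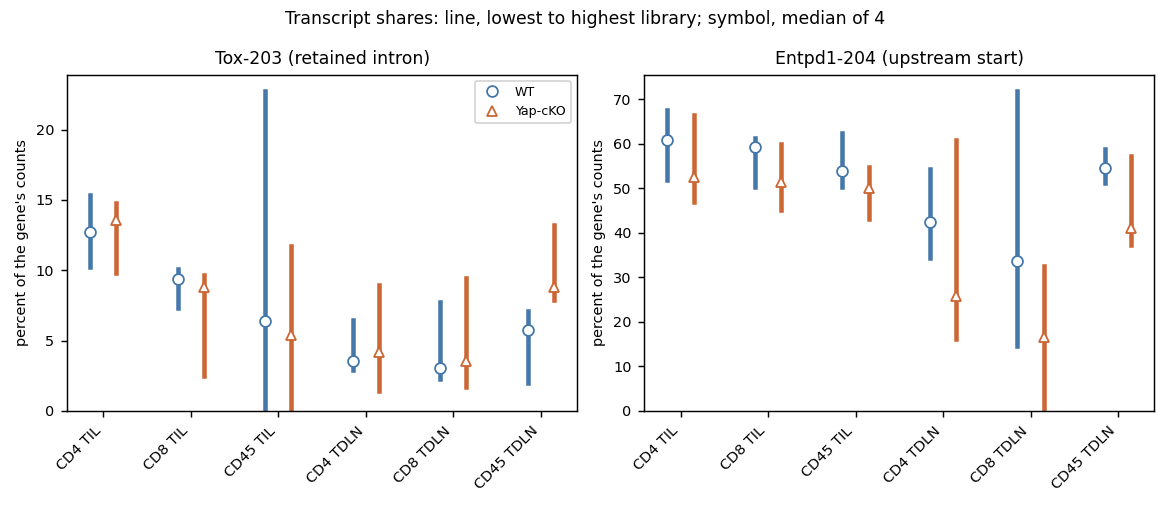
Share of a gene's counts (percent, lines from lowest to highest library and symbols at the median of 4) assigned to Tox-203 and to Entpd1-204 in each group. Tox-203 in CD4+ cells lies between 9.81% and 15.4% in TILs and between 1.42% and 8.92% in TDLNs.

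The genes whose pattern was most like each member were found by Pearson's correlation of log2 CPM over the 48 libraries among 16869 genes, as a description without a test, since libraries of a population share their whole profile. Pdcd1 was closest to Rgs16 (0.946), Tigit (0.944) and Tnfrsf9 (0.918), Tigit to Pdcd1, Tnfrsf18 (0.931) and Chst2 (0.930), and Lag3 to Stk32c (0.822), Nrgn (0.817) and Gzmb (0.804). Havcr2 was closest to Fgl2 (0.904), Mdfic (0.899) and S100a6 (0.894), and Entpd1 to Hip1 (0.945), Prr5l (0.943) and Anxa4 (0.938). Cd226 was closest to Ms4a4b (0.935), Gbp8 (0.916) and Gprin3 (0.906), and Cd160 to Klra6 (0.899), Ifitm10 (0.894) and Wdr95 (0.887). Tox was closest to Camk4 (0.975), Cd3g (0.975) and Trac (0.968), of which Cd3g and Trac encode parts of the T-cell receptor complex, and Tox2 to Atcay (0.872), Bmp7 (0.867) and Il2 (0.853). Among the 32 T-cell libraries, Pdcd1 correlated with Entpd1 (0.919), Havcr2 (0.873), Lag3 (0.861) and Tigit (0.839), and hardly with Tox (0.183), Cd160 (0.0185) or Cd226 (-0.0889).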

How the data were processed

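RNA-seq was made from 48 libraries, in 12 groups of 4, with the SMART-Seq v4 kit, and processed by the authors with FastQC, Trimmomatic and Salmon 0.9.1 against mm10, per the submitters' processing notes. Values deposited by the authors are, per transcript, Salmon's expected count and a TPM, which Salmon scales by effective length and depth. Fold changes of the authors were not used, and 0 columns belonged to other samples.

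Transcripts were matched without version to GENCODE M21 on GRCm38 (111787 of 112092, leaving 0.0488% to 0.18% of counts unmatched), summed per gene and rounded. The 9 genes were chosen by name, and the members and lists were chosen with earlier results of these data known. A gene entered a test if 4 or more of its libraries held 10 or more counts, with edgeR 4.0.16 under R 4.3.3 (TMM, quasi-likelihood F test, Benjamini-Hochberg adjustment over all genes tested). Calls needed a log2 fold change beyond 1 in size and an adjusted p under 0.05. SE was derived from the fold change and the F statistic. CPM were scaled by TMM over the 48 libraries, and TPM summed per gene. All 9 genes are named in every comparison, at most 4 called genes with the smallest p per list, and for each member the 3 genes of highest correlation (log2 CPM with a prior of 0.5). Scripts were tested on simulated data. Between 12656302 and 24213689 counts fell on genes. Reads carried no molecular identifiers, so 3 counts as a floor covers counting error only, and counts used no strand.

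Groups and replicate numbers came from the labels. The labels do not say whether libraries of a group came from separate mice, so p-values measure only the spread between these libraries, and 0 of 72 pairs within groups were identical. Same-numbered CD4+ and CD8+ libraries were taken as paired where their deviations from the group means correlated above 0.1 in every pair. The correlations were 0.116 to 0.749 in WT TILs, 0.162 to 0.654 in Yap-cKO TILs and 0.433 to 0.835 in WT TDLNs, but reached -0.0815 in Yap-cKO TDLNs, and comparisons of genotype or tissue were not paired either. Ratios of Tigit to Cd226 (pseudocount 0.5 counts) were compared between genotypes with two-sided exact permutation tests. Alternatives were DESeq2 1.42.0, no count filter, transcript length offsets, the replicate number as a block, scaling on 15 T-lineage genes, a Y-linked covariate, the adjusted p alone, CPM without TMM, another pseudocount or TPM for the ratio, and each library left out.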

Additional observations from a re-analysis of the deposited data

Results flagged for a closer look

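In 9 of the 108 sets of 4 libraries, 1 library stood apart from the other three, where chance gives about 1 in 20. Yap-cKO CD8+ TIL replicate 2 was highest for Pdcd1 (1058 CPM, others 378 to 389) and Entpd1 (131 CPM, others 29.3 to 40.9). Yap-cKO CD4+ TIL replicate 3 was highest for Lag3 (39.6 CPM, others 8.67 to 11.6) and lowest for Cd226 (12.5 CPM, others 55.5 to 61.1). In Yap-cKO CD8+ TDLN cells replicate 1 was highest for Lag3 (5.87 CPM, others 1.06 to 1.51) and Tox2 (2.91 CPM, others 0.125 to 0.598). Single libraries also stood highest for Havcr2 in WT CD4+ TDLN cells (replicate 4, 4.82 CPM, others 3.31 to 3.56), Tigit in Yap-cKO CD45+CD4-CD8- TILs (replicate 1, 11.4 CPM, others 4.21 to 4.78) and Cd226 in WT CD45+CD4-CD8- TDLN cells (replicate 2, 4.33 CPM, others 0.616 to 0.761).

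Havcr2 (3.19 on the log2 scale) and Tigit (2.45) passed edgeR's test of the interaction of genotype and tissue in CD4+ cells. Havcr2 lost this call in 14 of 16 and Tigit in 12 of 16 fits that left out a library, both lost it with T-lineage scaling (2.04 and 1.30) and with the replicate number as a block (adjusted p = 0.0886 and 0.0543, edgeR), and Havcr2 also lost it with length offsets (adjusted p = 0.0536, edgeR). Per library, Havcr2 in Yap-cKO TILs split into 3 libraries at 37.0 to 59.4 CPM and 1 at 5.52 CPM.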

How the results depend on the processing

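The numbers of members called are given with each alternative that moved them by over 1.5 times. For Yap-cKO against WT, the 4 calls in CD4+ TILs became 2 with the replicate number as a block and 0 with T-lineage scaling or the Y-linked covariate, the 1 call in CD8+ TILs became 0 under each of these, and 0 calls in CD45+CD4-CD8- TDLN cells became 1 with the covariate (Havcr2, -2.53). For TILs against TDLNs, 5 calls in WT CD8+ cells became 8 with T-lineage scaling. There the calls over all 13894 genes tested also rose, from 5235 to 8740. For CD4+ against CD8+ cells, 0 calls in WT TILs became 2 with DESeq2, no filter or the replicate block and 1 with T-lineage scaling, 1 call in Yap-cKO TILs became 2 with DESeq2 or no filter, and 1 call in Yap-cKO TDLNs became 3 with DESeq2, no filter or the block. The 2 interactions in CD4+ cells became 6 with DESeq2, 1 with length offsets and 0 with the block or T-lineage scaling. With each library left out, calls ranged from 1 to 7 in CD4+ TILs, 0 to 2 in CD8+ TILs, 3 to 5 (WT CD4+), 4 to 5 (WT CD8+), 3 to 6 (WT CD45+CD4-CD8-), 5 to 5, 6 to 8 and 6 to 7 (the same in Yap-cKO) between tissues, 0 to 1 (WT TILs), 1 to 4 (WT TDLNs) and 1 to 1 (Yap-cKO, either tissue) between CD4+ and CD8+ cells, and 0 to 4 for the CD4+ interaction, and stayed at 0 elsewhere. The ratio differences ranged from 0.46 to 1.23 in CD4+ TILs, -2.40 to -1.01 in CD4+ TDLNs, -0.66 to -0.08 in CD8+ TILs, -2.46 to -0.51 in CD8+ TDLNs, -0.27 to 0.43 in CD45+CD4-CD8- TILs and -2.13 to -0.86 in CD45+CD4-CD8- TDLN cells. Over all genes, the 1139 called for genotype in CD4+ TILs became 2128 with DESeq2, 1723 with no filter, 767 with the block, 3658 (17 higher, 3641 lower) with T-lineage scaling and 2 with the covariate. The 1719 in CD8+ TILs became 1 with the block or the covariate and 5712 (6 higher, 5706 lower) with T-lineage scaling. Counts over all genes in the other comparisons moved as follows. For genotype, 135 in CD45+CD4-CD8- TILs became 527 (DESeq2), 250 (no filter) and 1 (block or covariate), and the 6, 2 and 8 in CD4+, CD8+ and CD45+CD4-CD8- TDLN cells became 21, 15 and 16 with DESeq2. Between tissues, 5227 in WT CD4+ and 5235 in WT CD8+ cells became 7885 and 8740 with T-lineage scaling. Between CD4+ and CD8+ cells, 17 in WT TILs became 149 (DESeq2), 63 (no filter) and 103 (block), 346 in Yap-cKO TILs 734 (DESeq2) and 612 (block), 481 in WT TDLNs 891 (block), and 323 in Yap-cKO TDLNs 575 (DESeq2). The 205 and 63 interactions in CD4+ and CD8+ cells became 842 and 719 with DESeq2, 386 and 457 with no filter, 89 and 0 with the block and 2102 and 3288 with T-lineage scaling, and 0 in CD45+CD4-CD8- cells became 119 with DESeq2. In the paired comparisons the block changed no call of a member other than those given. CPM without TMM moved 6 of 108 group levels by over 1 SD. No called value changed sign under any alternative, and the cause of these changes was not tested. Havcr2 and Tox2 had few counts in CD8+ TDLN cells and were under the count filter there in the comparison of genotypes.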

Other observations

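One relation was noticed after the data were seen and then measured on the same libraries, over the 8 libraries of each T-cell population and tissue (log2 CPM, 4 relations, exact permutation tests, two-sided, Benjamini-Hochberg adjusted). The adjustment covers these 4 relations and not the other gene pairs that could have been noticed, so the p-values are no independent support. In TDLNs Tigit was lower in libraries with more Cd226, with Pearson's r of -0.933 in CD4+ cells (p = 0.00146, adjusted p = 0.00293, Spearman's rho -0.905, p = 0.00456, adjusted p = 0.00913) and -0.945 in CD8+ cells (p = 0.000942, adjusted p = 0.00293, rho -0.905, p = 0.00456, adjusted p = 0.00913). Without the 2 libraries farthest from the median of Cd226 r was -0.945 and -0.979. Cd226 varied 7.58-fold among the CD4+ and 14.8-fold among the CD8+ TDLN libraries. With each genotype's mean subtracted and libraries permuted within genotype (576 arrangements, exact permutation), r was -0.919 in CD4+ cells (p = 0.00347, adjusted p = 0.0104) and -0.945 in CD8+ cells (p = 0.00521, adjusted p = 0.0104). In TILs the genotypes did not overlap in Tigit (CD4+) or in Cd226 (CD8+), so no pooled correlation is given there. Within genotype r was 0.366 in CD4+ and 0.657 in CD8+ TILs (exact permutation, p = 0.373 and 0.109, adjusted p = 0.373 and 0.146), and neither passed. CD4+ and CD8+ libraries of the same number deviated together, so the relations in the 2 populations of a tissue are not independent of each other. The 4 libraries of a genotype are too few for a correlation of their own.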
